A study of Mus musculus with 6 samples.

Results

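The 10 genes described here encode integrin chains of dendritic cells: Itgax, Itgam, Itgal, Itga4, Itga5 and Itgav for α subunits, and Itgb2, Itgb1, Itgb5 and Itgb7 for β subunits. They were picked by name from the 30587 rows of the table, with earlier results of these data known. All 10 were measured and passed the low-count filter. Dendritic cells grown from bone marrow (C57BL/6 strain) were sequenced for RNA in 2 genotypes, with 3 libraries of each. All had floxed Hif2a (symbol Epas1), which encodes the transcription factor HIF-2α. WT cells were Hif2afl/fl with no Cre, and KO cells were CD11c-Cre;Hif2afl/fl. Every culture was incubated with dimethyloxalylglycine (DMOG, which stabilises HIF α subunits) for 24 h and then with the glycolipid α-GalCer for 4 h. The question stated for the series is what HIF-2α does to the priming of dendritic cells by glycolipid. The Cre is driven by the promoter of Itgax itself, since CD11c is the protein that Itgax encodes. An effect of the Cre transgene and one of the recombined alleles cannot be told apart, because WT cells carried no Cre. The labels do not give the floxed exons, the construct of the transgene, the age of the animals or how many animals each library came from.

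Integrins are surface receptors made of 1 α and 1 β chain, and a chain that lacks its partner is in general not carried to the cell surface. The β2 integrins, in which CD11 chains pair with CD18, are restricted to leukocytes and bind ICAM molecules and complement fragments. They hold dendritic cells to T cells and take part in uptake. Integrins with the α4, α5 or αv chain bind VCAM-1, MAdCAM-1, fibronectin or vitronectin, and serve in homing, movement through matrix and uptake of dying cells. Adhesion is set less by the amount of integrin than by a switch of its shape, which talin and kindlin bring about from inside the cell.

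Promoter windows of RefSeq (GRCm38.p6, 250 bases before to 50 after the start) were found for 8 of the 10 genes. Shown here are those of the gene that rose (Itga4, chr2:79255176-79255475, plus strand), the gene that fell (Itgb1, chr8:128685404-128685703, plus strand) and the gene whose promoter names the Cre (Itgax, chr7:128129300-128129599, plus strand). Capitals mark matches to any of 4 motifs on either strand: ACGTG (the hypoxia response element core, RCGTG, with A as its first base), GAGGAA (an ETS core of the kind PU.1 binds), TGTGGT (the RUNX core) and the interferon-stimulated response element repeat. In RCGTG, R is A or G.
Itga4: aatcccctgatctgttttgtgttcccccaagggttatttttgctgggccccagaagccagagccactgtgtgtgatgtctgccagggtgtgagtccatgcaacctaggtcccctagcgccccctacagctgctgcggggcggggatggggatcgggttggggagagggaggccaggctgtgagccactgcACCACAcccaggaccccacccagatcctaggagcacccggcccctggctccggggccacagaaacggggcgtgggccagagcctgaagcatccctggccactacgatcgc
Itgb1: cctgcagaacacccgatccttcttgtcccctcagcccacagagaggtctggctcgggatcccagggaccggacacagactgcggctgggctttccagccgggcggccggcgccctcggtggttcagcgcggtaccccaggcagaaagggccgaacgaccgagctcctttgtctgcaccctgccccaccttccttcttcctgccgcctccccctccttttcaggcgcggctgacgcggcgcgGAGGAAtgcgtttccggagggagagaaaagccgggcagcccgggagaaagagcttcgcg
Itgax: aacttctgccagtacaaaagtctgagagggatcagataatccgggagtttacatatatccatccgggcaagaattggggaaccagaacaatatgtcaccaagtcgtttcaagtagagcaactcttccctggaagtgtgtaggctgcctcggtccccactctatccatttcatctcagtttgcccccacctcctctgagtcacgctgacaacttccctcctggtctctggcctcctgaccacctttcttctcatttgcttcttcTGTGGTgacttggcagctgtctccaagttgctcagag
The only capitals in the Itga4 window are a RUNX core on the opposite strand, with its first base at -60 from the start. The Itgb1 window has 1 ETS core at -9 and the Itgax window 1 RUNX core at 14 after the start, both on the gene's own strand. No matches overlap one another in these windows. Of the 8 windows, 0 held ACGTG, which 19.6% of the 32851 promoter windows of the table hold. The form with G as its first base, GCGTG, was not searched for or put in capitals. Its letters do stand in the Itga4 window, and in the Itgax window on the opposite strand. The count of 0 therefore does not mean that these windows lack a hypoxia core. GAGGAA was found in 5 of 8 (28.3% of all windows), TGTGGT in 2 of 8 (16.8%) and the interferon repeat in 0 of 8 (3.44%). These are matches of letters and not measured binding.

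Total counts ran from 14668641 to 17884160 per library. Epas1 checked the labels: it was lower in every KO library (9.59 to 12.7 CPM) than in every WT library (20 to 23.8 CPM). CPM is a gene's reads scaled to a fixed library total, with the TMM factors of edgeR. WT 2 and KO 1 stood apart in rows with a lone read, with 4825 and 3610 of them against 1961 to 2316 in the other libraries. Without both libraries, the calls on the 10 integrins were the same 2 genes. Markers of conventional dendritic cells were present in every library, among them Zbtb46 (30.4 CPM in WT and 43.1 in KO on average), Flt3 (63.6 and 74.8) and the MHC class II gene H2-Ab1 (1428 and 1016). Others of that list were low: Cd209a was near 0 (0.257 and 0.327 CPM), Xcr1 had 0.747 and 1.96 CPM and Clec9a 3.21 and 3.31 CPM. Some macrophage markers were also abundant, with Csf1r at 1446 and 1482 CPM and Lyz2 at 19010 and 14364 CPM. In the test described below, 8 of 14 macrophage and monocyte markers were higher in KO and 1, Lyz2, was lower. Over all tested genes the shares were 13.8% and 12.0%. Fcgr1, among the 8, had 21.1 CPM in WT and 164 in KO. Which cells this RNA came from was not tested. In bulk RNA, fewer cells of a type and less RNA per cell cannot be told apart.

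Most integrin genes of these cells were at similar levels in both genotypes. Itga4 rose and Itgb1 fell in KO, and the other 8 were not called by edgeR's quasi-likelihood test at an adjusted p under 0.05. In all, 25.8% of the 13249 genes tested were called, 13.8% higher and 12.0% lower, so 2 of 10 is near that background. The median log2 fold change of the 10, KO relative to WT, was 0.033 against -0.009 over all tested genes, and the median size of the change was 0.132 against 0.184. Libraries of the genotypes did not overlap in 3 of the 10 (Itga4 and Itgam higher, Itgb1 lower), against 40.4% of all tested genes, of which 20.5% had every KO library above and 20.0% every KO library below. P-values here measure the spread between libraries, which may be technical, as nothing says they came from separate animals or cultures.

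**Figure D1:**
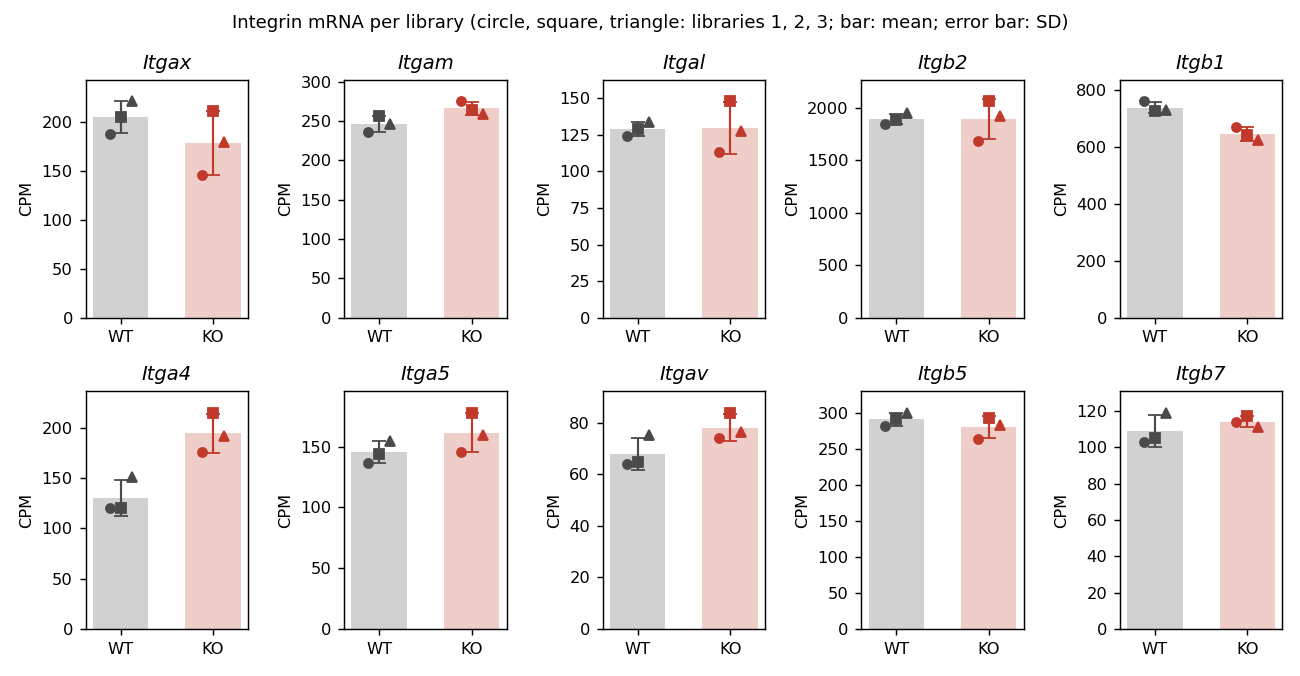
Normalised level (CPM, linear axis from 0) of the 10 integrin genes in each of the 3 WT (grey) and 3 KO (red) libraries, with bars at the mean and error bars of 1 SD; circle, square and triangle are libraries 1, 2 and 3 of each genotype. Itga4 and Itgam lie higher in all 3 KO libraries and Itgb1 lower, while KO 1 and KO 2 stand at the ends of the KO values of Itgax, Itgal and Itgb2.

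Itgb2 encodes CD18, the β2 chain shared by the leukocyte integrins (chromosome 10, 77530252 to 77565708, plus strand, mm10). It measured 1845, 1881 and 1945 CPM in WT 1, 2 and 3 and 1686, 2060 and 1921 CPM in KO 1, 2 and 3. The genotypes overlapped, with both the lowest and the highest value in KO. WT averaged 1890 ± 50.7 CPM and KO 1889 ± 189 CPM (SD, n = 3 each). KO differed from WT by a log2 fold change of -0.0008 ± 0.0629 (SE; edgeR adjusted p = 0.994), and its 95% interval allows 0.91 to 1.1-fold.

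Itgax encodes CD11c, the α chain that names the Cre line and is widely used to mark dendritic cells (chromosome 7, 128129547 to 128150657, plus strand). It measured 188, 205 and 221 CPM in WT and 146, 211 and 179 CPM in KO. KO 1 and KO 3 lay below every WT library, and KO 2 lay within the WT values. The log2 fold change was -0.19 ± 0.11 (SE, n = 3 each), with a 95% interval of 0.744 to 1.03-fold (edgeR adjusted p = 0.21), so the difference was not larger than the spread. KO 2 decided this call: without it the log2 fold change was -0.33 (edgeR adjusted p = 0.0198; the 16 alternatives gave 0.0198 to 0.654). Without KO 1 it was -0.07. Whether the transgene adds reads to the Itgax row was not tested.

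Itgam encodes CD11b, the α chain of the complement receptor Mac-1 (chromosome 7, 128062640 to 128118491, plus strand). It measured 236, 257 and 246 CPM in WT and 275, 264 and 259 CPM in KO, so that the lowest KO value exceeded the highest WT value by a small margin. This difference of 0.11 ± 0.06 in log2 (SE) missed the threshold (edgeR adjusted p = 0.215), as it did under each of the 16 alternatives. Of its 5024 exon bases, 3450 are also in exons of Gm49368 on the same strand, so its count is uncertain. The table has a second row named Itgam, with at most 6 reads in a library, which was left out.

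Itgal encodes CD11a, the α chain of LFA-1, the main ICAM-1 receptor of leukocytes (chromosome 7, 127296260 to 127335138, plus strand). It measured 124, 129 and 134 CPM in WT and 113, 148 and 128 CPM in KO. The KO values spread to both sides of the WT values, as they did for Itgb2. KO and WT differed by 0.006 ± 0.084 in log2 (SE, n = 3 each; edgeR adjusted p = 0.97), with a 95% interval of 0.886 to 1.14-fold. The sign of this value and of that of Itgb2 turned under several alternatives, so neither has a direction. These 3 CD11 genes lie on the same chromosome, and Itgam and Itgax are neighbours there.

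Among the CD11 chains, the share of Itgax was lower in KO, whereas that of Itgam overlapped between genotypes. Every share depends on the count of Itgam, which is uncertain as stated above. Per kilobase of exon, Itgax took 37.2, 37.7 and 39.9% of the summed level of Itgax, Itgam, Itgal and Itgad in WT and 29.7, 36.9 and 34.4% in KO. Every KO share of Itgax was lower than every WT share, though KO 2 by a small margin, and the exact two-sided permutation p was 0.1, the smallest that 3 against 3 allows. Itgam took 44.7, 45 and 42.4% in WT and 53.4, 44.2 and 47.5% in KO, which overlap (exact permutation p = 0.3). Itgal took 17.7 ± 0.378% in WT and 17.9 ± 1.09% in KO (SD, n = 3 each). Itgad, for the remaining CD11 chain, had at most 4 reads in a library.

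Itga4 encodes α4, which pairs with β1 to bind VCAM-1 and fibronectin and with β7 to bind MAdCAM-1 of gut vessels (chromosome 2, 79255426 to 79333123, plus strand). It measured 120, 120 and 151 CPM in WT and 176, 215 and 192 CPM in KO. The genotypes did not overlap: the lowest KO library had 176 CPM and the highest WT library 151 CPM. From WT to KO the mean rose from 130 ± 17.7 to 195 ± 19.9 CPM (SD, n = 3 each). In log2 the rise was 0.58 ± 0.09 (SE), or 1.49-fold with a 95% interval of 1.3 to 1.72 (edgeR adjusted p = 0.000592). The call held under all 16 alternatives, at 0.50 to 0.70, and it was the only one of the 10 genes called under every one of them. Of its 13978 exon bases, 1124 overlap exons of Cerkl on the other strand, which had 9 to 19 reads per library against 1856 to 3638 for Itga4.

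Itgb7 encodes β7, which pairs with α4 or with αE (chromosome 15, 102215995 to 102231944, minus strand). It measured 103, 105 and 119 CPM in WT and 114, 117 and 111 CPM in KO, with the KO values inside the WT range. Their difference in log2 was 0.06 ± 0.06 (SE; edgeR adjusted p = 0.529), with a 95% interval of 0.949 to 1.15-fold. That interval lies below the 1.3-fold lower bound of Itga4, its partner chain.

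Itgb1 encodes β1, the chain that pairs with α4, α5 and many other α chains to bind matrix (chromosome 8, 128685654 to 128733200, plus strand). It measured 760, 726 and 729 CPM in WT and 671, 642 and 623 CPM in KO. No KO library reached the lowest WT library. The log2 fold change was -0.19 ± 0.06 (SE, n = 3 each), which is 1.14-fold lower, with a 95% interval of 0.803 to 0.951 for KO over WT (edgeR adjusted p = 0.0223). Itgax had nearly the same fold change, but its KO SD of 32.4 CPM on a mean of 179 was wider than the 24.3 CPM on 645 of Itgb1. The fall of Itgb1 did not pass without WT 1 (-0.17), without KO 2 (-0.19) or without KO 3 (-0.17). It also did not pass with scaling to library size only (-0.16) or with no low-count filter (-0.18), and adjusted p ran from 0.00695 to 0.14 over the 16 alternatives.

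Itga5 encodes α5, which with β1 forms the classical fibronectin receptor (chromosome 15, 103344286 to 103366763, minus strand). It measured 137, 144 and 155 CPM in WT and 146, 178 and 160 CPM in KO. The genotypes overlapped, with KO 1 among the WT values. A log2 difference of 0.15 ± 0.08 (SE) was not called (edgeR adjusted p = 0.172). Without KO 1 the value was 0.22 and passed (edgeR adjusted p = 0.0315; the 16 alternatives gave 0.0315 to 0.533).

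Itgav encodes αv, the common α chain of vitronectin receptors (chromosome 2, 83724397 to 83806916, plus strand). It measured 63.9, 64.9 and 75.2 CPM in WT and 74.1, 84 and 76.5 CPM in KO. The highest WT library, WT 3, lay above the lowest KO library, KO 1. KO exceeded WT on average by 0.20 ± 0.07 in log2 (SE), or 1.15-fold, narrowly missed the threshold (edgeR adjusted p = 0.0599). It passed without WT 3 (0.29), without KO 1 (0.24), with scaling to library size only (0.24), with no low-count filter (0.22) and with offsets for GC content and length (0.21). The adjusted p ran from 0.0113 to 0.22 over the alternatives. Of its 10744 exon bases, 634 overlap Gm13684 on the other strand, which had at most 6 reads in a library.

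Itgb5 encodes β5, the partner of αv in a receptor by which dendritic cells can take up dying cells (chromosome 16, 33829665 to 33949338, plus strand). It measured 283, 292 and 301 CPM in WT and 264, 294 and 284 CPM in KO, which overlap. KO differed by -0.06 in log2 ± 0.07 (SE, n = 3 each; edgeR adjusted p = 0.577), with a 95% interval of 0.872 to 1.06-fold.

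**Figure D2:**
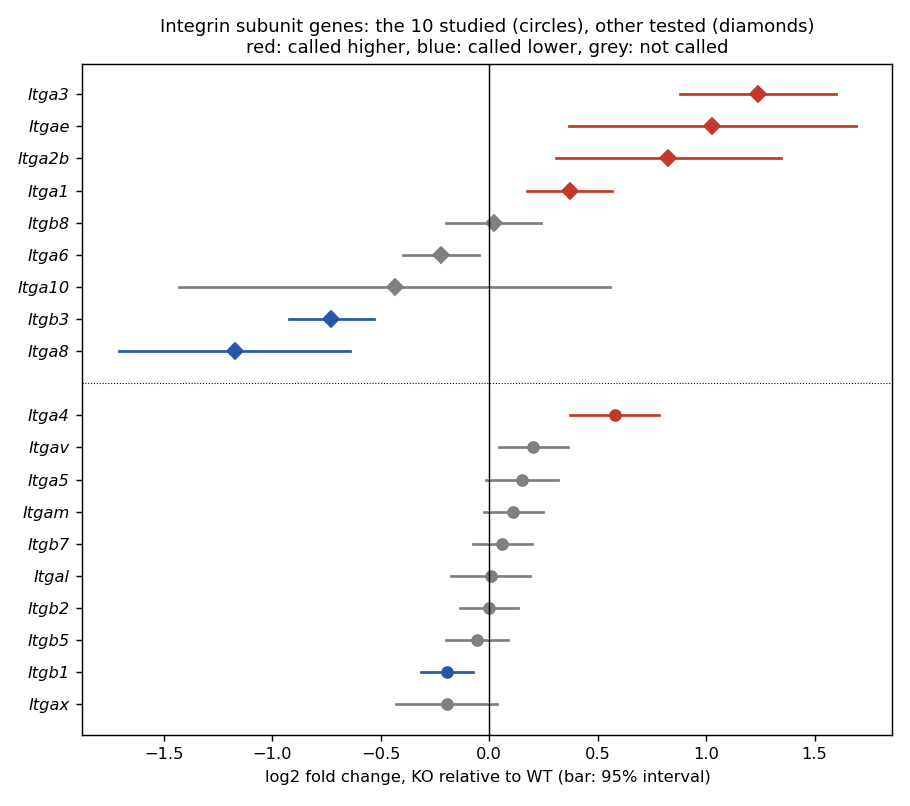
Log2 fold change of KO relative to WT (horizontal axis) with its 95% interval for the 10 integrin genes (circles, below the dotted line) and the 9 other integrin subunit genes that passed the count filter (diamonds); red is called higher, blue called lower and grey not called. The 10 lie between -0.19 and 0.58, and the other subunits between -1.17 and 1.24.

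Divided by exon length, the chains differed in level far more than the genotypes did. By the mean of all 6 libraries, Itgb2 was highest at 619 CPM per kilobase, followed by Itgb1 at 170 and Itgb5 at 80.6. Itgam (51), Itgb7 (40.3), Itgax (39.9) and Itga5 (31.1) came next, then Itgal (19.7), Itga4 (11.6) and Itgav (6.8). In WT the level was 619 ± 16.6 for Itgb2 and 6.33 ± 0.584 for Itgav (SD, n = 3 each). Itgb7 and Itgax overlapped in level over the 6 libraries, as did Itgax and Itga5, and no other neighbours in this order did. With lengths of the longest coding transcript in place of merged exons, Itgax (47.4) stood above Itgb7 (41.6) by the same mean. The neighbours that then overlapped were Itgam and Itgax, Itgax and Itgb7, Itgb7 and Itga5, and Itgal and Itga4. The 3 highest genes all encode β chains, and the level of Itgb2 exceeded the summed levels of its 3 α partners in every library.

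**Figure D3:**
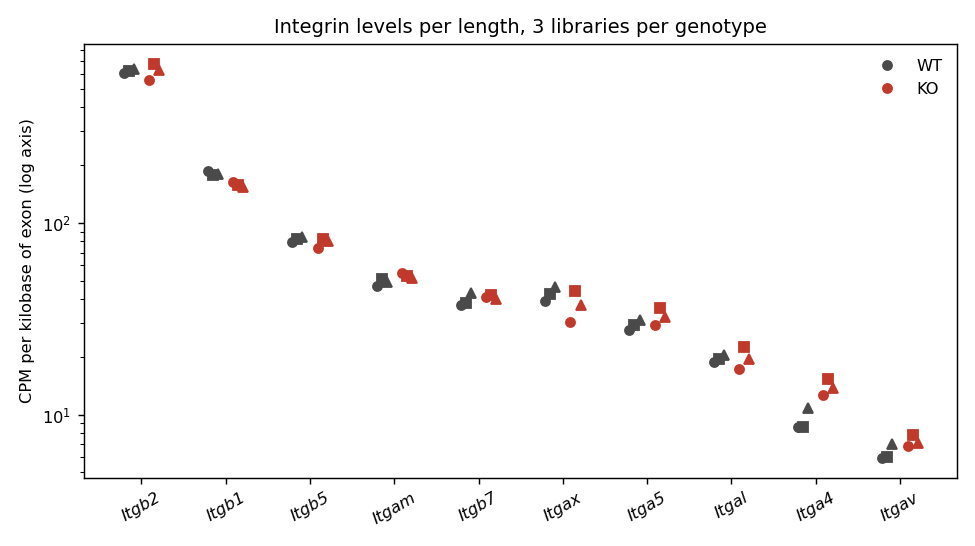
Level per length (CPM per kilobase of merged exons, log axis) of the 10 integrin genes in each WT (grey) and KO (red) library, ordered by the mean of all 6. Itgb2 lies near 619 and Itgav near 6.8 on average, and among the 10 only Itga4, Itgam and Itgb1 have no overlap between genotypes.

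Because integrins work in pairs, the ratio of α to β reads was compared within each library for 8 known pairs. This ratio does not depend on scaling between libraries. The ratio Itga4/Itgb1 moved most, with log2 values of -2.66, -2.60 and -2.27 in WT and -1.93, -1.58 and -1.70 in KO, a difference of 0.776 or 1.71-fold. Itga4/Itgb7 differed by 0.519, from 0.249 ± 0.081 to 0.768 ± 0.128 (SD, n = 3 each). Itgav/Itgb1 differed by 0.399, Itga5/Itgb1 by 0.344 and Itgav/Itgb5 by 0.262. In these 5 pairs no KO ratio was as low as the highest WT ratio, and the exact two-sided permutation p was 0.1, the smallest possible, or 0.16 adjusted over the 8. Pairs with the same chain are not independent, and 3 of the 5 share Itgb1. The β2 pairs overlapped between genotypes: Itgax/Itgb2 differed by -0.202 (exact permutation p = 0.2), Itgam/Itgb2 by 0.118 (p = 0.4) and Itgal/Itgb2 by 0.004 (p = 1). The log2 ratio Itgam/Itgb2 was -2.62 in KO 1 against -2.96 and -2.89 in KO 2 and KO 3, and its WT values were -2.97, -2.87 and -2.98.

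**Figure D4:**
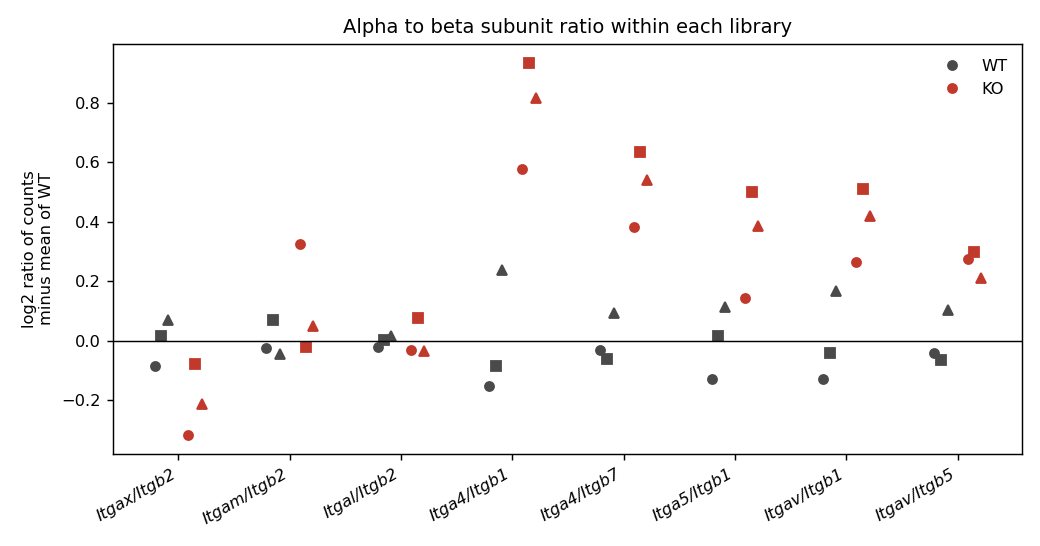
Log2 ratio of α to β subunit counts within each library, minus the mean of the 3 WT libraries, for 8 integrin pairs; grey is WT, red is KO, and circle, square and triangle are libraries 1, 2 and 3. The 5 pairs without β2 lie higher in all 3 KO libraries, and the 3 pairs with β2 overlap.

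Among the 7366 genes whose log2 CPM averaged 4 or more, Itga4 was followed most closely over the 6 libraries by Atf7ip (root mean square difference of centred log2 CPM 0.032), Pdxk (0.041) and Agrn (0.051). Their levels in KO were 1.44, 1.45 and 1.54 times those in WT, which the choice by likeness fixes. For Itgb1 the closest were Tank (0.018), Ufm1 (0.020) and Spata6 (0.020). For Itgax they were Plxna1 (0.040), Cdk6 (0.042) and Nrp1 (0.044). Among the 10 genes, the nearest pair was Itgal and Itgb2 (0.038), the chains of LFA-1. Next came Itgb2 and Itgb5 (0.046), both β chains and so not partners. The farthest pair was Itgb1 and Itga4 (0.419), the chains of VLA-4, which restates their calls in opposite directions.

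The 16 other integrin subunit genes were mostly at low levels, and 9 of them had enough reads for a test. Of those, 4 rose and 2 fell in KO, beside 13.8% and 12.0% of all tested genes. Itgb3, for the β3 partner of αv, measured 42.1, 41 and 49.8 CPM in WT and 24.6, 27.6 and 28 CPM in KO. It was 1.66-fold lower (log2 fold change -0.73 ± 0.09 SE, edgeR adjusted p = 5.85e-05). The call held under all 16 alternatives, at -0.778 to -0.628. Of the αv partners, Itgb3 and Itgb1 were therefore called lower, Itgb1 not under all alternatives. Itgb5 and Itgb8 (0.02 ± 0.10) were not called. Itga3, for a laminin-binding α chain, rose 2.36-fold from a low level of 3.11 to 3.75 CPM in WT to 6.69 to 9.1 CPM in KO. Itga1, for a collagen-binding α chain, rose 1.29-fold and Itga8 fell 2.25-fold. Itgae and Itga2b, which the naming rule did not take and which were picked with their values known, were higher by 1.03 and 0.83 in log2. Itgae, for the αE partner of β7, did not pass without WT 1 (0.88), WT 2 (1.09) or KO 3 (0.83), nor with DESeq2's Wald test (1.04). Itga2b did not pass without WT 2 (0.85), WT 3 (0.71) or KO 3 (0.71), nor with WT 2 and KO 1 both left out (0.81). Thus 2 of this list rose without WT 2 or without KO 3. Itgb2l, a close relative of Itgb2 picked after its values were seen, had 77 to 121 reads per library against 28517 to 34782 for Itgb2.

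Of the 15 integrin ligand genes tested, 3 rose and 1 fell, a share near the 25.8% called over all tested genes. Thbs1, for the matrix protein thrombospondin-1, measured 897, 868 and 1002 CPM in WT and 2922, 3092 and 2969 CPM in KO, a 3.25-fold rise (edgeR adjusted p = 3.05e-10). Edil3, for an αv ligand, rose 2.32-fold from about 8 CPM (8.52, 7.9 and 7.91), and C3, whose fragments bind the Itgam and Itgax products, rose 1.48-fold. Spp1, for osteopontin, fell 1.24-fold, but not with offsets for GC content and length (log2 fold change -0.17). Icam1, the counter-receptor of LFA-1 and Mac-1, measured 166, 170 and 181 CPM in WT and 180, 175 and 180 CPM in KO (edgeR adjusted p = 0.578). Vcam1, an α4 ligand, was at 4.38 to 5.87 CPM over the 6 libraries, and Madcam1 had at most 0.174 CPM.

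Genes of integrin activation (talin, kindlin and the Rap1 module) were listed together with inhibitors of it. Of 23 tested, 6 rose and 4 fell, all by less than 1.5-fold, where 13.8% of all tested genes rose and 12.0% fell. These counts mix activators and inhibitors, so they give no direction of activation. Fermt3, for kindlin-3 of blood cells, measured 288, 292 and 294 CPM in WT and 336, 365 and 363 CPM in KO, or 1.22-fold higher (edgeR adjusted p = 0.00474). Rassf5, for the Rap1 effector RAPL, was 1.24-fold and Cyth1, for cytohesin-1, 1.18-fold higher. Rap1a, for a small GTPase upstream of talin, was 1.19-fold lower, but not with offsets for GC content and length (log2 fold change -0.14). Tln1, for talin itself, was not called (0.07 ± 0.09 SE, edgeR adjusted p = 0.61). The number that fell was 1 without WT 3, and 2 without WT 1, without KO 3 or with WT 2 and KO 1 both left out.

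Genes of signalling and adhesion complexes inside the cell changed in both directions: of 28 tested, 7 were higher and 7 lower. Calls over all tested genes also went both ways, at 13.8% higher and 12.0% lower. Zyx (zyxin) rose 1.30-fold and Parvg (γ-parvin of blood cells) 1.31-fold. Nedd9, a docking protein of focal adhesions, fell 1.45-fold. The number that fell was 1 without WT 3, 3 without WT 1, WT 2 or KO 3. It was 4 without KO 1, with WT 2 and KO 1 both left out, and under library-size scaling alone. Of 13 lateral membrane partners tested, 6 fell and 1 rose, with a median log2 fold change of -0.159. Over all tested genes 12.0% fell and 13.8% rose, with a median of -0.009. The tetraspanin genes Cd81 and Cd9 fell 1.58 and 1.52-fold, from 758, 745 and 718 CPM to 486, 486 and 490 CPM for Cd9. Bsg (basigin) and Plaur (the urokinase receptor, a partner of Mac-1) fell 1.29 and 1.24-fold. The member that rose, Slc3a2 (CD98 heavy chain, a partner of β1), was named after its values were seen. It was 1.19-fold higher and did not pass without KO 3 (0.23). That list had 2 higher under limma-voom, DESeq2's Wald test, offsets for GC content and length, and library-size scaling alone.

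Among 14 transcription factor genes known at leukocyte integrin promoters, 3 rose and 3 fell, beside 13.8% and 12.0% of all tested genes. Cebpa fell 1.56-fold and Irf4 1.40-fold, whereas Runx3 rose 1.43-fold, from 50.3, 44 and 52.2 CPM to 67.5, 67.2 and 74.1 CPM, and Irf8 rose 1.23-fold. Spi1, for PU.1, was picked after its values were seen. Its rise of 1.13-fold (edgeR adjusted p = 0.0454) did not pass with the replicate block (0.18), nor without WT 1 (0.19), WT 2 (0.20), WT 3 (0.16) or KO 3 (0.13).

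**Figure D5:**
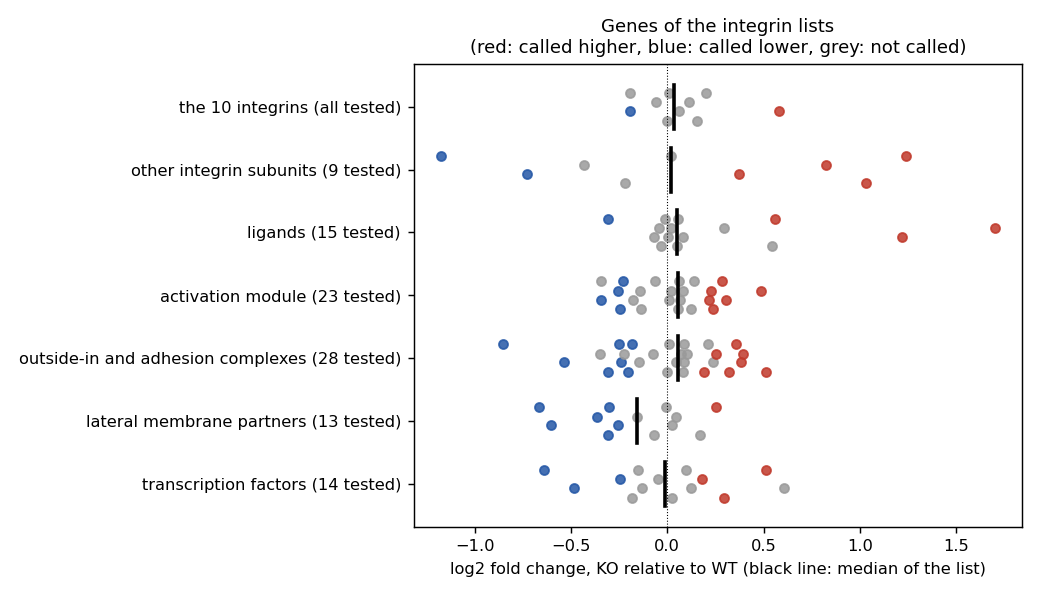
Log2 fold change of KO relative to WT (horizontal axis) for every tested gene of the 10 integrins and of 6 related lists, with a black line at each list's median; red is called higher, blue called lower and grey not called, and height within a row carries no value. The medians run from -0.159 for the lateral membrane partners to 0.058 for the outside-in and adhesion complexes.

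Markers of several cell types moved with genotype beside these integrin values. Over all tested genes, 13.8% were called higher and 12.0% lower, which is the background for the counts below. The summed level of 14 conventional dendritic cell markers was 7480 to 7716 CPM in WT and 6263 to 6983 CPM in KO. Most of it came from Cd74, H2-Ab1 and H2-Eb1, which fell, and Fscn1, which rose. Of the 13 tested, 4 rose and 6 fell. For 14 macrophage and monocyte markers the sum was 22050 to 24609 and 19080 to 19291 CPM. Lyz2 made up most of it (17808 to 20333 CPM in WT and 14223 to 14625 CPM in KO). Lyz2 was the 1 marker of this list that fell, while 8 of the 14 rose. For 12 markers of neutrophils, cells rich in the Itgam product, the sum was 640 to 718 and 451 to 506 CPM, mostly from Mmp8. Ly6g and Elane were at or near 0. Csf3r (17.4 to 24.9 CPM), S100a8 (11.5 to 18.1 CPM) and Ngp (8.52 to 15.5 CPM) were present in every library. Of the 8 neutrophil markers tested, 2 rose (Camp and Ngp) and 2 fell (Mmp8 and Cxcr2). Mast cell and basophil markers summed to 49.5 to 56.1 CPM in WT and 80.4 to 86.7 CPM in KO, with 3 of the 4 tested higher. Kit made up most of that sum. Cma1, Mcpt4, Tpsb2 and Fcer1a were at or near 0, whereas Gata2 had 3.24 to 7.46 CPM. Plasmacytoid dendritic cell markers summed to 200 to 240 and 405 to 409 CPM, mostly from Bst2. Siglech was at or near 0, whereas Spib, Il3ra and Tcf4 had 20.1 to 56.8 CPM. Markers of megakaryocytes and platelets, a list that holds Itgb3 and Itga2b, summed to 204 to 208 and 152 to 162 CPM. Pf4 made up most of that sum (116 to 126 CPM in WT and 92.7 to 96.9 CPM in KO), and Gp9 and Gp5 were below 1 CPM. Of the 4 tested, 1 rose (Itga2b) and 2 fell (Pf4 and Itgb3), so this sum includes the fall of Itgb3 itself. Stromal and endothelial markers summed to 20.4 to 26.6 and 41.7 to 48.1 CPM, in KO mostly from Kdr (29.4 to 35.2 CPM). In WT, Kdr had 11.1 to 12.7 CPM and Pecam1 7.71 to 10.8 CPM. T and NK cell markers (2.54 to 3.76 and 2.72 to 2.8 CPM) and B cell markers (1.43 to 2.33 and 1.51 to 2.55 CPM) were near 0 in both genotypes. The part of these markers in the rise of Itga4 or the fall of Itgb1 was not tested.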

How the data were processed

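The authors deposited raw read counts per gene symbol, not normalized, for 6 libraries. Per the submitters' processing notes, the build was mm10; the notes name HTSeq, SAMtools, TopHat2, HISAT, HISAT2 and DESeq2 but no version or role. Not given in the sources used here are the gene models, strandedness and how multiply aligned reads were counted. The row with most reads kept a repeated symbol (23 symbols). Rows were kept by filterByExpr (minimum count 10; 13249 tested, holding at least 99.75% of the counts of each library) and tested with edgeR 4.0.16 in R 4.3.3: TMM factors, quasi-likelihood F test, genotype only, Benjamini-Hochberg adjustment over all tested rows, threshold 0.05. The SE is the fold change divided by the root of F. The fit was tested on simulated data. Lengths and coordinates come from GENCODE M21 (mm10), promoters from RefSeq (GRCm38.p6). Ratios and shares were compared by exact permutation of libraries.

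Named genes were all 10 integrins and Epas1, up to 4 called genes of each related list by lowest p, and the 3 genes most like Itga4, Itgb1 and Itgax. One gene that this rule takes is not reported here. The members, lists, motifs and alternatives were chosen with earlier results of these data known. Alternatives were DESeq2 size factors, library size only, 2 other filters, DESeq2 1.42.0, limma-voom (limma 3.58.1), a robust fit, a replicate block, GC and length offsets (98.5% of tested rows had both), and libraries left out. Protein motifs of integrin tails were not analysed here.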

Additional observations from a re-analysis of the deposited data

How the results depend on the processing

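Itga4 kept its call and Epas1 its fall under all 16 alternatives. Over the fold changes of the 10 integrins under those alternatives, 136 of 160 values kept their sign and their side of the threshold. Integrins called higher numbered 2 with scaling to library size only, with no low-count filter and with GC and length offsets, where Itgav joined Itga4, and 1 to 3 when 1 library was left out. Integrins called lower numbered 0 with scaling to library size only and with no low-count filter, and 0 to 1 when 1 library was left out. Over all genes, leaving out 1 library gave 1182 to 1992 higher and 945 to 1622 lower. The log2 fold change of Itgb2 turned positive with DESeq2 size factors (0.001), library size only (0.032), no low-count filter (0.012), the DESeq2 Wald test (0.001) and without WT 2 and KO 1 (0.072), and ran from -0.066 to 0.077 with 1 library left out. That of Itgal turned negative with limma-voom (-0.002), the replicate block (-0.001) and GC and length offsets (-0.064), and ran from -0.099 to 0.1 with 1 library left out. The difference in the Itgal/Itgb2 ratio ran from -0.033 to 0.023 with 1 library left out. The cause of these changes was not tested.

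Same-numbered libraries deviated together with correlations of 0.0146, -0.11 and 0.0799 across genes, so the numbers were not taken to pair the libraries. WT 1 correlated best with KO 3, not with its own number. With the replicate block 1 integrin was called higher and 1 lower, as without it, and 1741 genes rose and 1506 fell against 1826 and 1586.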
